A study of Mus with 8 samples.

Results

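A set of 10 genes that set up or steer the pigment cell lineage, of 22206 transcript clusters on the array, was followed in the pigmented mouse melanoma line B16F10. They were chosen by name: the transcription factors Mitf, Sox10, Pax3, Tfap2a, Lef1 and Irf4, the coactivator Cited1, and the receptors Mc1r, Kit and Ednrb. Each had 1 row with 1 gene symbol in the deposited tables, so all 10 were measured. Cells were seeded in plates for a day and then kept for 48 h either in medium alone, the control, or in medium with 2 µM Butyroside D. RNA of 4 control and 4 treated samples was read on 1 Mouse Clariom S array each, which summarises many probes into 1 log2 signal per gene. The treatment note of the controls also names 0.2 µM of the compound, while their titles give control only, and they are used as such here. All cells are 1 cell line. No label ties the arrays of a group to different cultures, so the p-values cover array-to-array spread alone, which may be technical.

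Melanocytes arise from the neural crest. SOX10 and PAX3 switch on Mitf, whose product binds E-box sequences and drives the genes of melanin synthesis. Signals from outside reach the same gene: MC1R, the receptor for alpha-melanocyte-stimulating hormone, raises cAMP and activates CREB at the Mitf promoter, WNT signals act there through LEF1 and beta-catenin, and KIT and the endothelin receptor EDNRB act through kinases that also modify the MITF protein.

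The melanocyte identity of the line was plain in its markers. All 8 melanocyte markers lay above background in these arrays, among them Tyrp1 at 19.02 ± 0.01 and Dct at 18.92 ± 0.05 in controls (log2 signal, SD, n = 4). Background is here a log2 signal of 5.17, the highest of the 8 array medians of the array's own background probe sets, which ran from 4.69 to 5.17. None of 8 lymphoid and leukocyte markers and none of 8 mast cell markers had a group mean above that level, against 1 of 8 for keratinocytes, 3 of 7 for fibroblasts, 2 of 8 for endothelium and 6 of 8 for Schwann cells. Among the 10 genes, Irf4 and Kit are also used by lymphoid and by mast cells.

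The arrays came in close pairs, and every value below has to be read with that in mind. Within each group, arrays 1 and 2 correlated with each other at 0.997 to 0.998 across transcript clusters, as did arrays 3 and 4, while arrays of different pairs correlated at 0.986 to 0.993. The labels do not say what the arrays of a pair share. A mean ± SD over 4 arrays therefore rests on 2 close pairs. The limma values below, unless a block or pair mean is named, treat the 4 arrays of a group as independent. At an unadjusted limma p under 0.05 stood 17.9% of all transcript clusters that way, and 4.01% with the close pair as a random block.

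No gene of the lineage group passed the test for a rise or a fall with the compound. With limma and Benjamini-Hochberg adjustment over all transcript clusters, 0 of the 10 genes passed an adjusted p of 0.05, against 0.117% of all transcript clusters (26, of which 17 were higher and 9 lower in treated arrays). At an unadjusted p under 0.05, 0 of the 10 were found with limma, against 17.9% of all transcript clusters. For none of the 10 did the 4 treated arrays lie wholly above or below the 4 control arrays, as was the case for 12.9% of all transcript clusters. Beside shares of this size, counts of 0 among 10 genes say little about the group. A positive change was seen in 7 of the 10, and the median of the 10 was 0.15 on the log2 scale, beside 51.5% positive and a median of 0.01 over all transcript clusters. Of the 7 genes above background 5 were positive, with a median of 0.19, beside 53.1% and 0.02 for all transcript clusters above background. The smallest unadjusted p of the 10 was 0.108 (limma), for Mc1r. In such bulk RNA, a change in the share of cells that express a gene and a change in RNA per cell cannot be told apart.

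**Figure D1:**
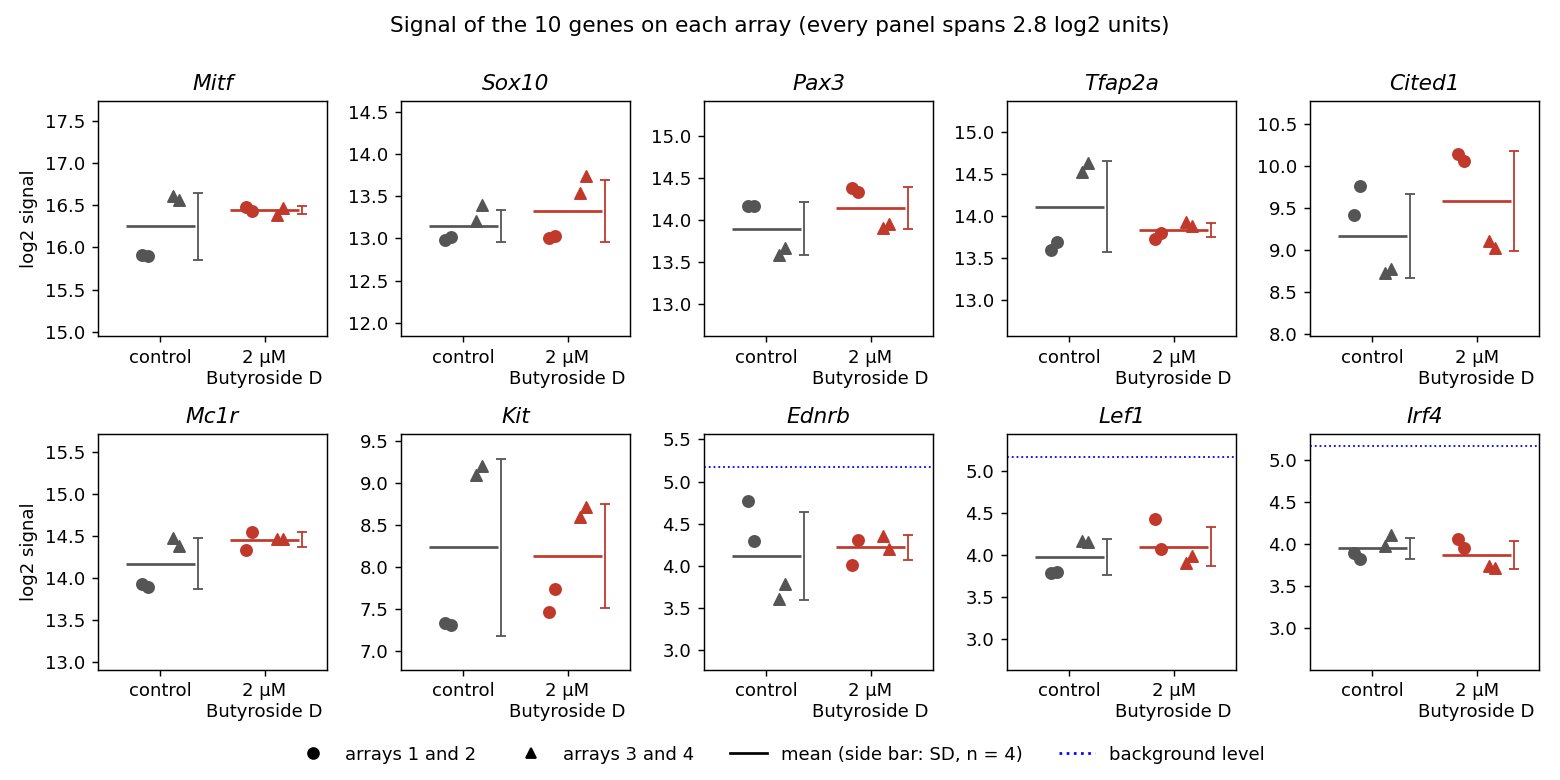
Log2 signal (vertical axis) of each of the 10 genes on the 4 control and 4 treated arrays. Circles are arrays 1 and 2, triangles arrays 3 and 4, horizontal lines group means, side bars the SD with n = 4, and the dotted line the background level of 5.17. In every panel the treated arrays overlap the control arrays, and Kit, Tfap2a and Mitf show a control group split into 2 levels.

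Mitf, the basic helix-loop-helix factor that governs the melanocyte lineage (TC0600001136.mm.2), was level across the treated arrays and uneven across the controls. The control arrays 1 to 4 read 15.91, 15.90, 16.61 and 16.57, and the treated arrays 16.48, 16.43, 16.38 and 16.47 (log2 signal). All 4 treated arrays thus lay between the lower and the higher control pair. The difference of the means, treated minus control, was 0.19 ± 0.19 on the log2 scale (SE, n = 4 arrays per group; limma adjusted p = 0.616), with a 95% interval from -0.22 to 0.61. The treated arrays spanned 0.104 and the controls 0.711. One signal stands for the whole gene on this array, so the melanocyte transcript of Mitf and its other first-exon variants are not told apart.

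Sox10, the neural crest factor that activates Mitf (TC1500001863.mm.2), read 12.98, 13.02, 13.21 and 13.39 in controls and 13.00, 13.02, 13.54 and 13.74 in treated arrays. Arrays 3 and 4 were the higher ones in both groups, and treated arrays 1 and 2 were level with control arrays 1 and 2. Its change was 0.18 ± 0.19 (log2, SE; limma adjusted p = 0.661).

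Pax3, the paired-box partner of SOX10 at the Mitf promoter (TC0100002624.mm.2), ran the other way between pairs. It read 14.16, 14.17, 13.58 and 13.67 in controls and 14.38, 14.34, 13.91 and 13.95 in treated arrays, so arrays 3 and 4 were the lower ones in both groups. Treated minus control was 0.25 ± 0.19 (log2, SE; limma adjusted p = 0.517), 0.19 in arrays 1 and 2 and 0.30 in arrays 3 and 4.

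Tfap2a, an AP-2 factor that acts beside MITF at pigment genes (TC1300001851.mm.2), was the only transcription factor above background whose treated mean was the lower one. The controls read 13.61, 13.69, 14.53 and 14.63, and the treated arrays 13.73, 13.81, 13.93 and 13.88. All 4 treated values again fell between the 2 control pairs, as they did for Mitf. The change was -0.28 ± 0.24 (log2, SE; limma adjusted p = 0.563), with a 95% interval from -0.80 to 0.25.

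Cited1, a coactivator that binds CBP and p300 rather than DNA and is present in pigment cells (TC0X00002739.mm.2), had the largest mean difference of the 10. The controls read 9.41, 9.76, 8.72 and 8.78, and the treated arrays 10.14, 10.06, 9.11 and 9.03. Within each pair number the treated arrays were the higher ones, by 0.52 for arrays 1 and 2 and by 0.32 for arrays 3 and 4, but treated arrays 3 and 4 stayed below control arrays 1 and 2. Its mean was 9.17 ± 0.50 over the controls and 9.58 ± 0.60 with the compound (SD, n = 4 each). The difference of 0.42 ± 0.32 (log2, SE) had a limma adjusted p of 0.518 and a 95% interval from -0.30 to 1.13.

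Mc1r, the melanocortin receptor that controls the switch between dark and light pigment (TC0800001521.mm.2), was also more even in the treated arrays. The controls read 13.94, 13.89, 14.48 and 14.38, and the treated arrays 14.34, 14.55, 14.46 and 14.47. The treated values lay around the higher control pair, with 14.43 as the mean of control arrays 3 and 4 and 14.46 ± 0.09 (SD, n = 4) as the treated mean. Treated minus control was 0.29 ± 0.16 (log2, SE; limma adjusted p = 0.378).

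Kit, the receptor tyrosine kinase for stem cell factor that melanoblasts need to survive and migrate (TC0500000710.mm.2), varied most of all. It read 7.33, 7.31, 9.09 and 9.20 in controls and 7.46, 7.73, 8.60 and 8.71 in treated arrays. The 2 control pairs were 1.82 apart and the treated pairs 1.05, in the same direction. Against this spread the change with treatment was -0.10 ± 0.48 (log2, SE; limma adjusted p = 0.933), with a 95% interval from -1.18 to 0.97, so differences within that range could not be told from none.

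Ednrb, Lef1 and Irf4 had no signal above background in either group. Ednrb, the receptor for endothelin 3 (TC1400002641.mm.2), ranged from 3.61 to 4.77 in controls and from 4.01 to 4.35 in treated arrays. Lef1, the DNA-binding partner of beta-catenin (TC0300001330.mm.2), ranged from 3.79 to 4.17 and from 3.91 to 4.43. Irf4, a lymphoid factor that in human pigment cells acts with MITF at the tyrosinase gene (TC1300000338.mm.2), ranged from 3.82 to 4.11 and from 3.72 to 4.06. Over all transcript clusters 53.5% were above background in a group, and no change is given for these 3 genes.

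For all 10 genes the control pairs lay further from each other than the control mean from the treated mean. The gap between control arrays 3 and 4 and control arrays 1 and 2 was larger than treated minus control in 10 of 10 genes, against 57.9% of all transcript clusters. It exceeded 0.5 on the log2 scale in 7 of the 10, against 21.0% of all. Among the 7 genes above background these counts were 7 of 7 and 6 of 7, against 57.4% and 23.3% of all transcript clusters above background. Among treated arrays the same gap exceeded 0.5 in 3 of the 10 (Kit, Cited1 and Sox10), against 34.7%. In 7 of the 10 the treated mean lay between the means of the 2 control pairs, which held for 36.4% of all transcript clusters. These were Mitf, Pax3, Kit and Tfap2a, and also Ednrb, Lef1 and Irf4, which were below background. The share among transcript clusters above background was not computed.

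**Figure D2:**
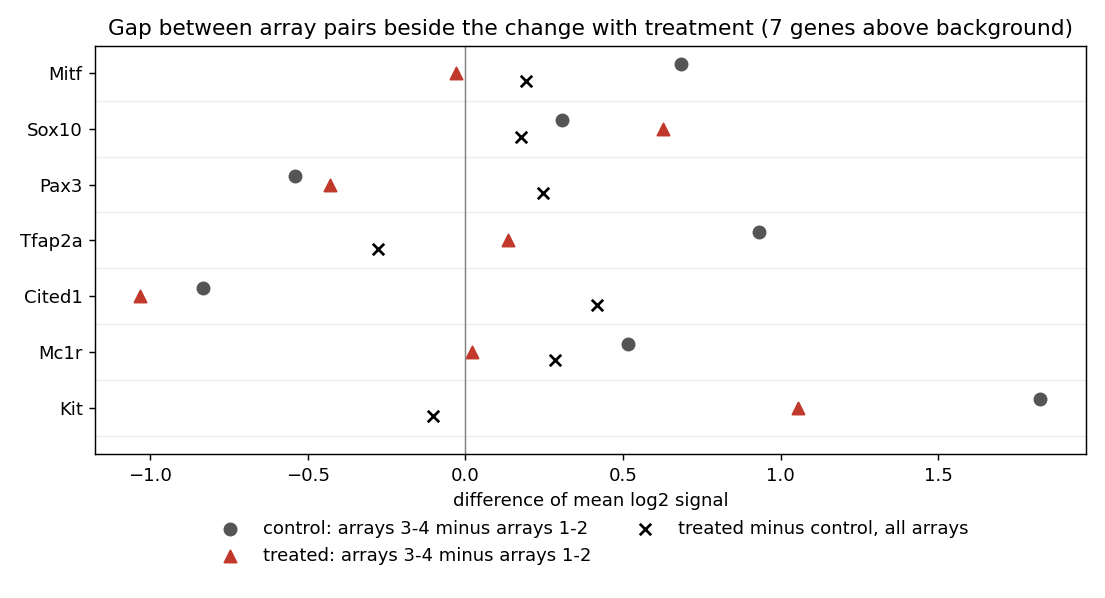
Difference of mean log2 signal (horizontal axis) for the 7 genes above background: arrays 3 and 4 minus arrays 1 and 2 among controls (circles) and among treated arrays (triangles), beside treated minus control over all arrays (crosses). Kit has the widest gap, 1.82 among controls, and Mitf, Tfap2a and Mc1r have a gap among controls of 0.52 to 0.93 and of 0.14 or less in size among treated arrays.

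The sign of the gap was the same in both groups for 6 of the 10 genes, against 52.8% of all transcript clusters. Kit, Sox10, Pax3 and Cited1 were split by at least 0.30 in size in the same direction in both groups, a limit read off these values. The share of all transcript clusters that meet it was not computed. Arrays 3 and 4 had more Kit (1.82 in controls, 1.05 in treated arrays) and more Sox10 (0.30 and 0.63). The same arrays had less Pax3 (-0.54 and -0.43) and less Cited1 (-0.83 and -1.03 on the log2 scale). Mitf, Tfap2a and Mc1r were split among the controls, by 0.68, 0.93 and 0.52, but lay close together in the treated arrays, with gaps of -0.03, 0.14 and 0.02. Whether the gaps differ between groups was not tested, since each group holds only 2 pairs.

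The change with treatment accordingly depended on which arrays were set against each other. Between arrays 1 and 2 of both groups, treated minus control was 0.55 for Mitf, 0.53 for Mc1r, 0.28 for Kit and 0.12 for Tfap2a. Between arrays 3 and 4 it was -0.16 for Mitf, 0.04 for Mc1r, -0.49 for Kit and -0.67 for Tfap2a (log2). Pax3, Cited1 and Sox10 kept a positive sign in both, with 0.02 and 0.34 for Sox10. No label says that equal numbers in the control and treated groups share a culture or a day, so this split is a description only.

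The authors' deposited table, whose headers name the same dose and a control, gave another picture of several of these genes. It holds 1 average per group and no values per sample, and which arrays its treated average was made from is not known here, so its fold changes and FDR may not describe these 4 treated arrays. Its control averages lay within the range of the 4 control arrays for all 10 genes. Its treated average lay outside the range of the 4 treated arrays for 6 of the 10 (and for 42.0% of all transcript clusters), so the authors' deposited table is described apart from the arrays. No label says which control arrays its control averages were made from, but they lay within the range of the 4 control arrays for all transcript clusters.

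Mitf, with a treated average of 15.46 against 16.25 in controls, had a signed fold change of -1.73 (lower when treated) in the authors' deposited table (p = 0.0124, FDR 0.161, from a test that the file headers do not name). That average lay below all 4 treated arrays, the lowest of which read 16.38. The log2 value of -0.79 in the authors' deposited table lay outside the array interval for Mitf given above, and outside the one from -0.36 to 0.74 that limma gave with the close pair as a random block. Mc1r likewise had a treated average of 13.56, below all 4 arrays, and a log2 change of -0.60 (FDR 0.273) in the authors' deposited table. Kit stood at 7.14 against 8.23, a log2 change of -1.09 (FDR 0.190), in the authors' deposited table, while its lowest treated array read 7.46.

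Cited1 was the member past the FDR threshold in the authors' deposited table, with 10.36 against 9.14, a 2.33-fold higher average (FDR 0.0309). On the log2 scale that is 1.22 in the authors' deposited table, above the array interval that ends at 1.13 and within the one of the random block, which ends at 1.23. There, 1 of the 10 genes was called against 1.56% of all transcript clusters, and 5 of the 10 (Cited1, Mitf, Kit, Ednrb and Mc1r) had an unadjusted p under 0.05 in the authors' deposited table, against 16.3% of all. Of these 5, the 4 other than Cited1 were lower in the authors' deposited table, as were 8.67% of all transcript clusters at that p, but Ednrb was at background. Tfap2a had a log2 change of -0.36 (FDR 0.386), Sox10 of 0.12 (FDR 0.879) and Pax3 of 0.01 (FDR 0.977) in the authors' deposited table. The averages of Ednrb, Lef1 and Irf4 were below the background level in both groups of the authors' deposited table, as in the arrays.

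**Figure D3:**
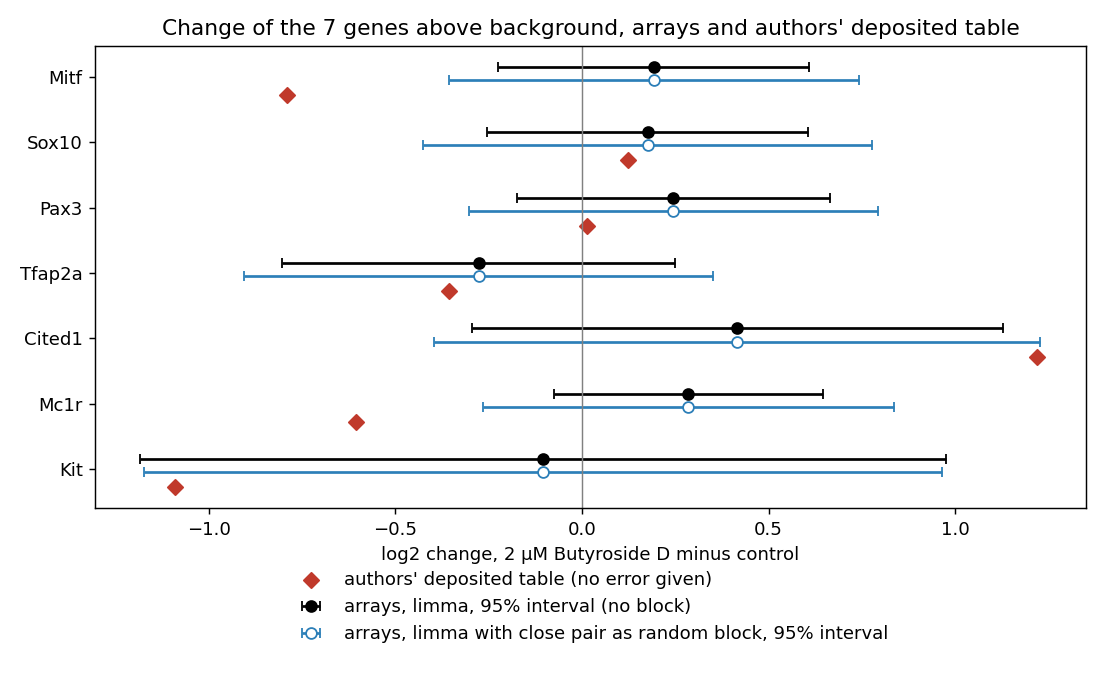
Log2 change, treated minus control (horizontal axis), of the 7 genes above background. Filled circles are the array means with the 95% interval of limma, open circles the same with the close pair as a random block, and diamonds the authors' deposited table, which gives no error. Every array interval spans 0, and for Mitf and Mc1r the diamond lies to the left of both intervals.

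The genes under MITF control were described next, from lists of pathway genes. Beside the counts of each list stand 0.117% of all transcript clusters past the threshold and 17.9% at an unadjusted limma p under 0.05. A positive change was found for 51.5% of all transcript clusters, with a median of 0.01. At 0.117%, a count of 0 in lists of this size says little about a pathway. In the arrays 14 of 17 pigment genes, all above background, had a positive change, and their median was 0.22 on the log2 scale. Among all transcript clusters above background 53.1% were positive, with a median of 0.02. In either direction 0 of 17 passed the threshold. At an unadjusted limma p under 0.05 there were 3 of the 17, all higher. Melanosome carriers had the smallest p: Slc24a5, an exchanger, read 15.75 ± 0.12 in controls and 16.30 ± 0.04 in treated arrays, and Slc45a2, a transporter, 15.80 ± 0.16 and 16.38 ± 0.14 (SD, n = 4 each). Their limma adjusted p were 0.0778 and 0.0877. In the authors' deposited table Slc24a5 had a log2 change of 0.08 and Slc45a2 one of -0.20, the opposite sign. The enzymes Tyr, Dct and Tyrp1 differed by 0.15 ± 0.15, 0.08 ± 0.15 and 0.01 ± 0.15, the melanosome matrix protein gene Pmel by 0.22 ± 0.13 and Mlana by 0.30 ± 0.20 (log2, SE). Mlana differed by -0.19 between arrays 1 and 2 of both groups and by 0.79 between arrays 3 and 4. Dct and Tyrp1 also turned from negative to positive, while Tyr and Pmel were positive in both. Of the 17, 8 were positive in the authors' deposited table, with a median of -0.098, beside 46.3% and -0.029 for all transcript clusters.

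The 17 measured genes among other reported MITF targets, of survival, cell cycle and metabolism, had a median of 0.08 with 12 positive, and 0 passed the threshold. At an unadjusted limma p under 0.05 there were 2 of the 17, both higher. The cyclin-dependent kinase gene Cdk4 read 14.76 ± 0.08 in controls and 15.24 ± 0.19 with the compound (SD, n = 4 each), a difference of 0.47 ± 0.13 (log2, SE; limma adjusted p = 0.130). Sgk1, a serum- and glucocorticoid-regulated kinase gene, differed by 0.74 ± 0.24 (log2, SE; limma adjusted p = 0.173), and treated arrays 1 and 2 averaged 6.91 where treated arrays 3 and 4 averaged 5.94.

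Among 23 other transcription factors listed for the neural crest and melanocyte, 0 passed the threshold as higher and 1 as lower, against 0.117% of all transcript clusters. At an unadjusted limma p under 0.05 there were 6 of the 23, 1 higher and 5 lower, against 17.9% of all. Of these 6, Foxd3 was below background in both groups. The 1 past the threshold was Usf1, an E-box factor related to MITF in its helix-loop-helix type, with control arrays at 8.10 ± 0.08 and treated ones at 7.22 ± 0.09 (SD, n = 4 each; limma adjusted p = 0.0313). Neither it nor any other transcript cluster passed with the close pair as a random block. Tead1, which acts in the Hippo pathway, differed by -0.65 ± 0.14 (log2, SE; limma adjusted p = 0.0778), with all treated arrays below all controls. The list had a median of -0.09, with 10 of 23 positive, and 11 of the 23 were below background in both groups. In the authors' deposited table Usf1 had a log2 change of -0.65 (FDR 0.0343), and Sox9, a neural crest SOX factor named here after its value was seen, had 1.10 (FDR 0.0468). In the arrays Sox9 differed by 0.61 ± 0.22 (log2, SE).

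None of the 25 measured genes of the MC1R and cAMP pathway passed the threshold, and their median was 0.08 with 15 positive. An unadjusted limma p under 0.05 was found for 6 of the 25, 3 higher and 3 lower, against 17.9% of all transcript clusters. Atf1, a CREB family factor, differed by -0.41 ± 0.12, and Atrn, the attractin gene of agouti signalling, by -0.34 ± 0.11 (log2, SE; limma adjusted p = 0.142 and 0.172), with no overlap between groups for either gene.

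The KIT and endothelin pathway likewise had 0 of 29 genes past the threshold, a median of -0.03 and 13 positive. An unadjusted limma p under 0.05 was found for 2 of the 29, 1 higher and 1 lower, against 17.9% of all transcript clusters. Gna11, a G protein subunit downstream of endothelin receptors, differed by 0.67 ± 0.29 and Sos1, an exchange factor of RAS, by -0.45 ± 0.20 (log2, SE; limma adjusted p = 0.273 and 0.272). For Gna11 the difference was 1.49 between arrays 1 and 2 of both groups and -0.15 between arrays 3 and 4. For Sos1 it was -0.70 and -0.21. The ligand genes Kitl, Edn1, Edn2 and Edn3 were below background in both groups. Plcb4, a phospholipase named here after its value was seen, was lower by FDR (0.0321) in the authors' deposited table, with a log2 change of -0.66, and differed by -0.25 ± 0.16 (SE) in the arrays.

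Of 24 measured genes of the WNT and LEF1 pathway, 0 passed the threshold, with a median of -0.04 and 11 positive, but 8 of the 24 were below background, and over the other 16 the median was 0.03 with 8 positive. An unadjusted limma p under 0.05 was found for 6 of the 24, 2 higher and 4 lower, against 17.9% of all transcript clusters. Of these 6, Wnt1, Wnt7b and Lgr5 were below background in both groups. Axin2, a feedback inhibitor that WNT signals induce, read 4.69 ± 0.25 in controls, below background, and 5.45 ± 0.22 in treated arrays (SD, n = 4 each; limma adjusted p = 0.0794). The WNT coreceptor gene Lrp6 differed by -0.51 ± 0.15 (log2, SE; limma adjusted p = 0.137). Axin2 was level in the authors' deposited table, at 4.71 against 4.72. The 11 partners of CITED, AP-2 and IRF factors had 0 past the threshold and a median of 0.04. At an unadjusted limma p under 0.05 there were 4 of the 11, 2 higher and 2 lower. Irf2 differed by 0.38 ± 0.14 (log2, SE; limma adjusted p = 0.215). Irf8 and Spi1, also among these 4, were below background in both groups, with Irf8 at 4.91 ± 0.04 and 4.45 ± 0.22 (SD, n = 4 each).

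**Figure D4:**
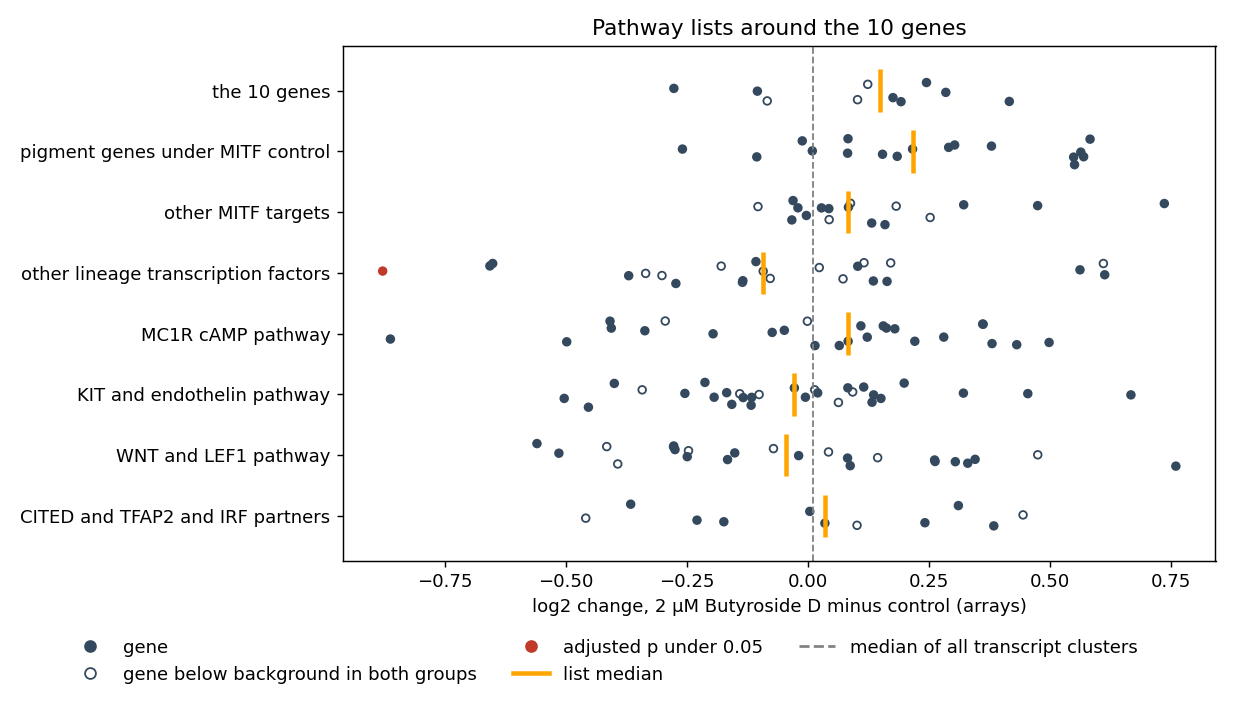
Log2 change in the arrays (horizontal axis) of each gene in the lists around the 10 genes, with 1 row of points per list. Open points lie below background in both groups, the red point passed an adjusted p of 0.05, orange bars are list medians and the dashed line is the median of all transcript clusters. The pigment genes have the highest median, 0.22, and Usf1 is the point that passed.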

How the data were processed

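Per the labels, total RNA of 8 samples was hybridised to Mouse Clariom S arrays. Expression Console, RMA and Transcriptome Analysis Console are named in the submitters' processing notes, with no role or order. The deposited array values are log2 signals. In the authors' deposited table, per the file headers, the group averages are log2, the fold change is signed (a score, with decreases as negative inverses), and the p-value and FDR come from an unnamed test. The genome build is not given in the sources used here. Of 28846 rows, 6640 control rows were set aside and the fit covered 22206 transcript clusters (limma 3.58.1 under R 4.3.3; lmFit, then eBayes, two-sided, Benjamini-Hochberg, threshold 0.05, 6 residual degrees of freedom) with a script that was tested on simulated data. The precision is limited by the number of arrays. The 10 genes and the 7 pathway and 7 marker lists (201 of 210 listed names matched by symbol) were chosen with earlier results of these data known. All 10 were named, with the 2 smallest p of each pathway list, any list gene past the threshold, and 6 fixed genes. Deviations from the group mean correlated at 0.070 to 0.084 between same-numbered control and treated arrays. For 3 control arrays the treated array that matched best by this measure had the same number. No label says that equal numbers share a culture, so the numbers were not taken as pairs in the main fit. Alternatives covered scaling, a dim filter, variance model, weights, blocks and arrays left out.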

Additional observations from a re-analysis of the deposited data

How the results depend on the processing

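Of the 10 genes, 0 passed the threshold under the alternatives run on the arrays: median centring, quantile normalization, the filter on dim transcript clusters (which left out Ednrb, Lef1 and Irf4), eBayes with trend, array weights (whose estimate stopped short of convergence), each array left out in turn, the replicate number as a block, the close pair as a random block, means of the close pairs, and an exact two-sided permutation test over 70 splits, where the smallest p was 0.200 (Mc1r) and 0.0286 the smallest possible. At an unadjusted limma p under 0.05, 1 of the 10 was found with the replicate block, against 19.5% of all transcript clusters. Without control array 3 it was also 1 of the 10, against 14.2%. In the authors' deposited table, Cited1 passed, the count there being 1, at 1.22 (FDR 0.0309). Signs of the log2 changes turned there for Mitf (-0.79) and Mc1r (-0.60), and the cause was not tested. Leaving out 1 array moved Kit between -0.41 and 0.22. Sox10 ranged from 0.04 to 0.28, Pax3 from 0.14 to 0.34, Cited1 from 0.23 to 0.61, Mitf from 0.08 to 0.31, Mc1r from 0.19 to 0.39 and Tfap2a from -0.45 to -0.10.

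The count of all transcript clusters called, 26, was 48 after median centring (83.3% higher, against 65.4%) and 62 among 11699 above background. The authors' deposited table, whose treated arrays are not known here, had 347. On the arrays the count was 0 with the replicate block (4320 at an unadjusted p under 0.05), 0 with the close pair as a random block (890, with limma's correlation within pairs at 0.808) and 0 with means of the close pairs (571). Without 1 array it was 0 to 5, with 5 without treated array 4 and 0 without each of the other 7. With arrays 1 and 2 against 3 and 4 as a fixed block, chosen after seeing the data, it was 1829. That fit takes arrays of a close pair as independent, as does the fit without a block that gave 26. With the fixed block Cited1 was at a limma adjusted p of 0.0531 and 0 of the 10 genes passed.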
